A study of Mus musculus with 35 samples.

Results

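The peaks described here are the autosomal H3K4me3 peaks of c13 oocyte-like cells and of E18.5 oocytes, with the positions at which the c13 peaks and the E18.5 peaks did or did not meet. They were chosen by list and chromosome: the H3K4me3 peak list of each stage, restricted to autosomes 1 to 19. That gave 30794 peaks in c13 and 24874 at E18.5, together 55668 of the 167982 peaks in all 13 lists of the series. The c13 cells were oocyte-like cells labelled d4c13, derived in culture from H18 mouse embryonic stem cells with a Prdm1-mVenus and a Dppa3-ECFP reporter and the genotype label WT. The E18.5 oocytes came from fetal mice with the same pair of reporters and were also labelled WT. Later stages served for comparison: c34 oocyte-like cells from the same H18 line, and germinal vesicle (GV) oocytes of BDF1 mice, for which no reporter was named. All c13 cells thus came from 1 cell line, and both stages compared carried the reporters.

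The marks were mapped with CATCH-seq, a native chromatin immunoprecipitation for few cells that uses micrococcal nuclease to cut chromatin and carrier DNA to limit losses. The labels name 35 libraries in all, of which 4 were H3K4me3 libraries of c13, 2 of E18.5 oocytes, 2 of c34 and 1 of GV oocytes. Each stage and mark had 1 deposited list of positions, without a score. No difference between the lists could therefore be tested or set against replicate spread. The range over the 19 autosomes is given, but chromosomes of 1 list are not replicates and do not stand for that spread. Read depth was unknown, so a longer list with wider peaks may also come from deeper libraries or a lower threshold, and the part of depth in the results was not tested.

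H3K4me3 is the trimethylation of lysine 4 on histone H3, placed by the SETD1 and MLL families of methyltransferases. It lies at the starts of active and poised genes, most of all where the DNA is rich in CpG, because CpG-binding subunits bring the enzymes there. In meiotic prophase the methyltransferase PRDM9 adds the mark at recombination sites away from genes, and growing mouse oocytes later gain broad H3K4me3 domains outside promoters. Oocytes at E18.5 are in meiotic prophase and begin to enter primordial follicles around birth.

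The promoters of 5 genes stand for the classes of gene described below, each shown from 250 bases before to 50 bases after the start as RefSeq gives it on GRCm38.p6. Every CG dinucleotide is in capitals. Sycp3 (chr10:88459337-88459636, plus strand), a lateral element protein of the synaptonemal complex, was marked in both lists. Stra8 (chr6:34920698-34920997, plus strand), the retinoic acid-induced regulator of meiotic entry, was marked in c13 and not at E18.5. Dnmt3l (chr10:78042037-78042336, plus strand), the partner of the de novo DNA methyltransferases in growing oocytes, was also marked in c13 and not at E18.5. Cd3g (chr9:44980382-44980681, minus strand), a subunit of the T cell receptor complex, was marked at E18.5 and not in c13. Nlrp5 (chr7:23385639-23385938, plus strand), a maternal effect gene of growing oocytes, was marked in neither.
Sycp3: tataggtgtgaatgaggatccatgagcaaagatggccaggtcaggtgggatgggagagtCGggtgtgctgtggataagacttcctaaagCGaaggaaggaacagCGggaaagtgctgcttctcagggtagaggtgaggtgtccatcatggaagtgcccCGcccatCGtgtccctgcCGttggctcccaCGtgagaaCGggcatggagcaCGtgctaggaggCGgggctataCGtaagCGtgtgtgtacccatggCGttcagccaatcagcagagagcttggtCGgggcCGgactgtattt
Stra8: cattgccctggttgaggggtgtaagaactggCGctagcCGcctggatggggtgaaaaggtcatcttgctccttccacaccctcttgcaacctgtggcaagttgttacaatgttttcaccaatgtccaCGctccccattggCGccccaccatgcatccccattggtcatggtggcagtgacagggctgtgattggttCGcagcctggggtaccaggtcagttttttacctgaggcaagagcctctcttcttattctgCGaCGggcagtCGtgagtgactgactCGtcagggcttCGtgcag
Dnmt3l: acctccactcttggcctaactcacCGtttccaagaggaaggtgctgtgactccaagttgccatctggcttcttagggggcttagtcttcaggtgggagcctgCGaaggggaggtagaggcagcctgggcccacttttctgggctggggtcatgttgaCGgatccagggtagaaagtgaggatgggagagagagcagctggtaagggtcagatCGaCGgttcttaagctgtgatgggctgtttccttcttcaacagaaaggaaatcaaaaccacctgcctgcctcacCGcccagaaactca
Cd3g: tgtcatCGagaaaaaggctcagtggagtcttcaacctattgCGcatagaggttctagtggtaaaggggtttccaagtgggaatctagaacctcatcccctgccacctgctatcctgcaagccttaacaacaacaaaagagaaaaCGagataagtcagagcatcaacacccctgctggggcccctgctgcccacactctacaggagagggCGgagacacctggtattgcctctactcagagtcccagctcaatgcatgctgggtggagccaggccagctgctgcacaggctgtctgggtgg
Nlrp5: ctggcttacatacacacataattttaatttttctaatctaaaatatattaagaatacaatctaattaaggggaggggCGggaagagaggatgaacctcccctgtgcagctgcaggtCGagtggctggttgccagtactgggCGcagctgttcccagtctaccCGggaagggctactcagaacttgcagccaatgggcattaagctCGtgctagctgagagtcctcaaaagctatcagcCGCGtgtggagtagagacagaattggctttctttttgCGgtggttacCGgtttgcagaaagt
The 300 bases held 15 CG in Sycp3, 10 in Stra8, 6 in Dnmt3l, 4 in Cd3g and 9 in Nlrp5. Against the number that base composition alone would give, the observed over expected CpG ratio was 0.67 for Sycp3, 0.43 for Stra8, 0.27 for Dnmt3l, 0.18 for Cd3g and 0.53 for Nlrp5.

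Most E18.5 peaks lay where c13 also had a peak, while 31.8% of c13 peaks had no E18.5 counterpart. The c13 peaks covered 251 Mb and the E18.5 peaks 132 Mb, a length ratio of 1.91 with a ratio of 1.24 in peak number. Counting a peak as shared when it touched the other list by at least 1 bp, 21006 c13 peaks (68.2%) and 22976 E18.5 peaks (92.4%) were shared. The 9788 c13-only peaks covered 47.6 Mb, and the 1898 E18.5-only peaks (7.63%) covered 8.98 Mb. The 2 lists had 92.4 Mb in common, which was 36.8% of the c13 length and 70.1% of the E18.5 length, and the common length was 0.318 of the joint length.

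The same asymmetry was present on every autosome. Between 59.8% (chromosome 18) and 73.4% (chromosome 4) of c13 peaks were shared, against 88.4% (chromosome 3) to 95.1% (chromosome 19) of E18.5 peaks. The c13 list was the longer on every autosome, and a longer list is touched more often. The part of list length in this asymmetry was not tested. The ratio of covered length, c13 over E18.5, ran from 1.25 on chromosome 3 to 2.61 on chromosome 16 with a median of 1.82. Sharing was often partial: 14906 c13 peaks and 19530 E18.5 peaks had at least 50% of their own length in the other list. Only 8618 c13 peaks lay wholly inside E18.5 peaks, whereas 14507 E18.5 peaks lay wholly inside c13 peaks. When at least 50% coverage was asked for, the peaks of 1 list alone numbered 15888 in c13 and 5344 at E18.5.

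The lists differed most among wide peaks. The median width was 4 kb in each list, with quartiles of 2 and 8 kb in c13 and of 2 and 7 kb at E18.5. Peaks above 20 and up to 50 kb numbered 1864 in c13 and 210 at E18.5, and peaks above 50 kb numbered 550 in c13 and 1 at E18.5. The 550 widest c13 peaks were 1.79% of the list and held 48.1 Mb of its length. Chromosome 3 had 1 of them and chromosome 15 had 65. The narrowest class, up to 2 kb, held 10232 c13 peaks and 7764 E18.5 peaks.

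**Figure D1:**
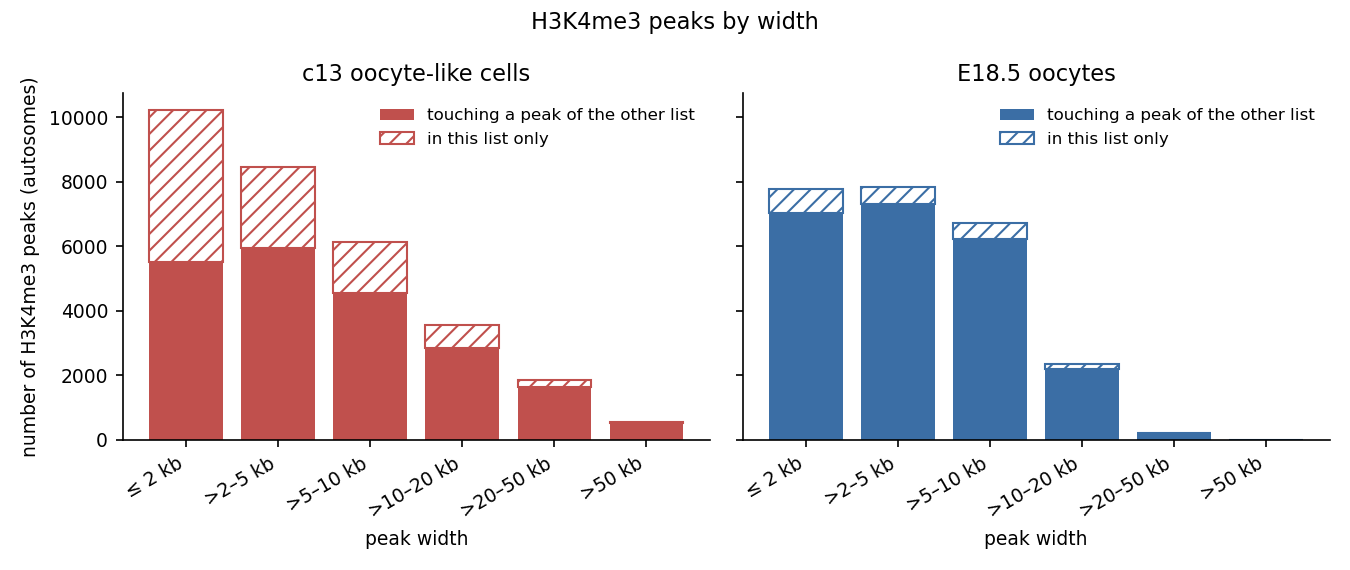
Number of autosomal H3K4me3 peaks (vertical axis) by peak width in kb (horizontal axis), for c13 oocyte-like cells on the left and E18.5 oocytes on the right. Filled bars are peaks that touch a peak of the other list and hatched bars those that do not. In c13 the hatched share is largest among peaks up to 2 kb, and 550 c13 peaks against 1 E18.5 peak exceed 50 kb.

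Narrow c13 peaks were the ones most often missing from E18.5. The shared portion of c13 peaks was 53.9% up to 2 kb, 70.2% above 2 to 5 kb, 74.0% above 5 to 10 kb, 80.6% above 10 to 20 kb, 87.3% above 20 to 50 kb and 94.5% above 50 kb. In the E18.5 list it ran from 90.7% up to 2 kb to 98.1% above 20 to 50 kb. A wide peak offers more bases to touch, so the rise with width is in part arithmetic. The c13-only peaks had a median of 3 kb against 5 kb for shared c13 peaks, and E18.5-only and shared E18.5 peaks both had a median of 4 kb.

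Wide c13 peaks often joined several E18.5 peaks and the ground between them. In all, 1619 c13 peaks (5.26%) touched 2 or more E18.5 peaks and held 4099 of them, and 501 E18.5 peaks (2.01%) touched 2 or more c13 peaks. A c13 peak above 50 kb touched a median of 3 E18.5 peaks, yet 25.1% of the length of these peaks lay in the E18.5 list. Of the peaks above 50 kb, 82.4% lay over a gene start. The widest, of 613 kb at chr11:119708001-120321000, covered 8 gene starts and touched 18 E18.5 peaks that made up 175 kb of it. Next came 2 peaks of 537 kb on chromosome 4 (chr4:154131001-154668000 and chr4:154854001-155391000), which had, in that order, 79 kb and 112 kb in the E18.5 list.

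The c13 peaks above 50 kb lay mostly inside c13 peaks of the other marks. Of their length, 87.6% lay in the c13 H3K27me3 list, the mark of Polycomb repressive complex 2, against 75.7% for all c13 peaks. In the c13 H3K36me3 list, the mark of transcribed gene bodies, the shares were 99.2% and 88.1%. At E18.5 the same ground lay to 51.9% in H3K27me3 and to 3.27% in H3K36me3, against 42.4% and 14.0% for all c13 peaks. The c13 lists of these marks, drawn in steps of 10 kb, also held most of the c13 H3K4me3 length in general. Single c13 H3K36me3 peaks could be very wide, such as the peak of 17950 kb at Hoxb1. The part of peak width in these shares was not tested, and lists cannot show whether marks lay on the same chromatin. Of the length above 50 kb, 32.9% lay in c34 peaks and 38.0% in GV peaks.

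Positions far from genes made up most of what each list held alone. Distances were taken to the nearest start of a protein-coding gene, or to the nearer annotated end for genes whose start RefSeq's promoter table did not give. Of c13-only peaks, 15.7% lay over a start, against 49.4% of shared c13 peaks. Of E18.5-only peaks, 2.27% lay over a start, which was 43 peaks, against 47.2% of shared E18.5 peaks. The peaks beyond 5 kb of any start were 79.7% of c13-only peaks and 94.8% of E18.5-only peaks, against 48.0% of shared c13 and 48.6% of shared E18.5 peaks. Median distances were 28.9 kb for c13-only and 64.5 kb for E18.5-only peaks, and 0.98 kb and 3.01 kb for shared c13 and shared E18.5 peaks. Gene bodies were touched by 53.7% of c13-only and 49.4% of E18.5-only peaks, against 76.9% of shared c13 and 77.0% of shared E18.5 peaks.

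Read the other way, a peak over a start was nearly always common ground for E18.5. Of the 10878 E18.5 peaks over a start, 99.6% were shared, against 89.7% of those above 5 to 50 kb away and 81.7% of those beyond 50 kb. The c13 list had 11914 peaks over a start, of which 87.1% were shared. Farther out, 57.2% of c13 peaks above 5 to 50 kb away and 55.4% of those beyond 50 kb were shared.

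Narrow peaks far from genes were numerous, and most touched no peak of the later stages, whether shared or in 1 list only. Among peaks up to 2 kb wide and beyond 5 kb of a start, 3983 c13 peaks and 3968 E18.5 peaks were shared. Of these, 61.6% of the c13 peaks and 57.2% of the E18.5 peaks touched neither a c34 nor a GV peak, and of list-only peaks of this kind 57.4% of those in c13 and 73.6% of those at E18.5 touched neither. For shared peaks over a start, the share in neither later list was 4.33% in c13 and 4.37% at E18.5. Over starts, 53.9% of c13-only peaks there were in the c34 list and 67.7% in the GV list, against 92.4% and 92.5% of shared c13 peaks there. No map of PRDM9 sites was used here, so the share of narrow distal peaks at recombination sites was not tested.

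At genes, nearly everything marked at E18.5 was also marked in c13. A protein-coding gene was called marked when a peak lay within 1 kb of its start, or of either annotated end for the 4205 of 20661 autosomal genes without a given start. The marked genes were 14812 in c13 (71.7%) and 12675 at E18.5 (61.3%). Both lists marked 12574 genes (60.9%), c13 alone marked 2238 (10.8%), E18.5 alone marked 101 (0.489%) and neither marked 5748 (27.8%). Thus 99.2% of the genes marked at E18.5 were marked in c13, and 84.9% of those marked in c13 were marked at E18.5. The small E18.5-only class depends on the peaks used: it held 709 genes with peaks of at least 3 kb only, 564 with as many of the widest c13 peaks as E18.5 had, and 1238 without the c13 peaks above 50 kb.

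The c13-only genes fell into 2 kinds by the peak that marked them. For 727 of 2238 (32.5%), the c13 peak touched an E18.5 peak elsewhere along its length, and for 1511 (67.5%) the peak itself was c13 only. Under c13 peaks above 50 kb, 203 of 222 genes belonged to the first kind, and under peaks up to 2 kb, 2 of 557. For the 101 E18.5-only genes, 60 had a c13 peak within 5 kb of the start.

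At later stages the 4 classes kept different shares. Genes marked in both lists were in the c34 list for 93.5% and in the GV list for 93.6%. The c13-only genes followed with 51.3% in c34 and 67.6% in GV oocytes. E18.5-only genes had 28.7% in c34 and 58.4% in GV oocytes, and genes of neither list 12.4% in c34 and 31.4% in GV oocytes. In the H3K27me3 lists, c13-only genes had a peak for 81.1% in c13 and 58.6% at E18.5, and E18.5-only genes for 71.3% in c13 and 58.4% at E18.5. The shares were 64.2% in c13 and 27.8% at E18.5 for genes marked in both, and 39.1% in c13 and 44.6% at E18.5 for genes of neither list.

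Promoter CpG content followed the classes, a property that the choice of peaks had not used. Over the 16456 genes with a RefSeq promoter sequence, the median observed over expected CpG ratio was 0.79 for genes marked in both lists, 0.37 for c13-only, 0.21 for E18.5-only and 0.15 for genes in neither. A ratio of at least 0.6 was found in 77.3% of genes marked in both, in 21.2% of c13-only genes, in 0 of 72 E18.5-only genes and in 1.48% of genes in neither. The Sycp3, Stra8, Dnmt3l and Cd3g promoters printed above follow this order, and Nlrp5, with 0.53, lies above most genes of its class. Among c13-only genes, the median was 0.25 where the c13 peak touched an E18.5 peak and 0.42 where it did not.

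Binned by that ratio, the gap between the stages was widest in the middle. Below 0.2, c13 marked 18.9% of genes and E18.5 marked 9.13%. From 0.2 to 0.4 the shares were 45.4% in c13 and 25.8% at E18.5, and from 0.4 to 0.6 they were 85.8% in c13 and 66.4% at E18.5. From 0.6 to 0.8 c13 marked 98.4% and E18.5 marked 90.4%, and above 0.8 the shares were 99.7% in c13 and 97.9% at E18.5.

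**Figure D2:**
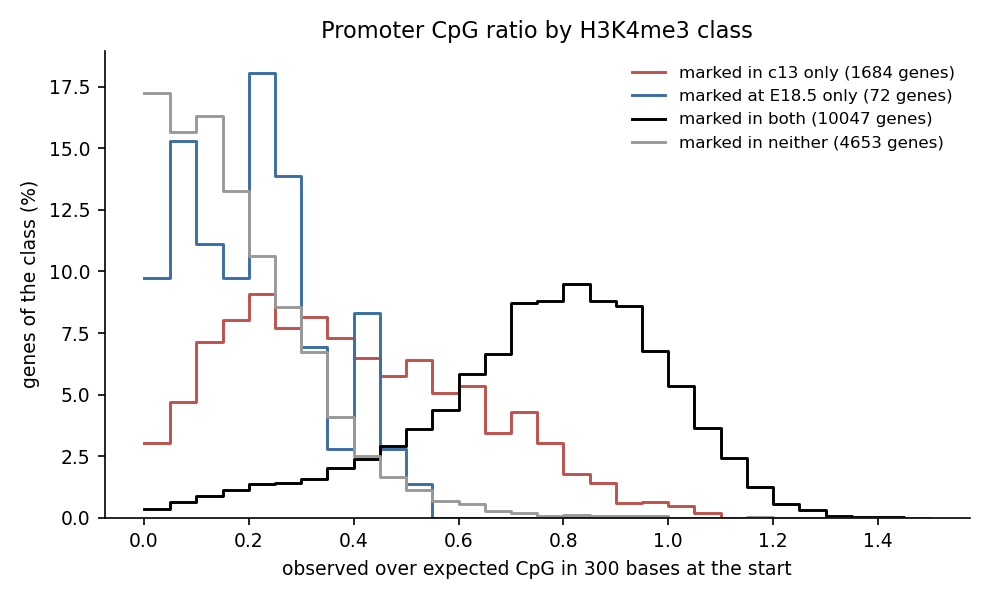
Share of genes (vertical axis, percent of each class) by observed over expected CpG ratio in 300 bases at the start (horizontal axis), for genes marked in c13 only, at E18.5 only, in both lists and in neither. Medians are 0.37 for c13-only, 0.21 for E18.5-only, 0.79 for both and 0.15 for neither, and the E18.5-only line rests on 72 genes.

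Where both lists marked a start, the c13 peak was usually the wider. For 10047 genes with a known start, the widest peak within 1 kb had a median of 8 kb in c13 and 5 kb at E18.5. The median of the per-gene ratio, c13 over E18.5, was 1.5 with quartiles of 1.00 and 3.55. The c13 peak was wider at 6395 genes, the E18.5 peak at 2256, and 1396 were of equal width on the 1 kb grid. At 139 of these genes (1.38%) the widest peaks of c13 and E18.5 lay at different places around the starts and shared no base. Past 2-fold, 4294 genes (42.7%) were wider in c13, and 1052 (10.5%) were at most 0.5 times as wide in c13. Counting covered length within 5 kb of the start in place of the whole peak left 2448 genes past 2-fold in c13. That length cannot exceed the window, so part of the lower count is by construction.

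**Figure D3:**
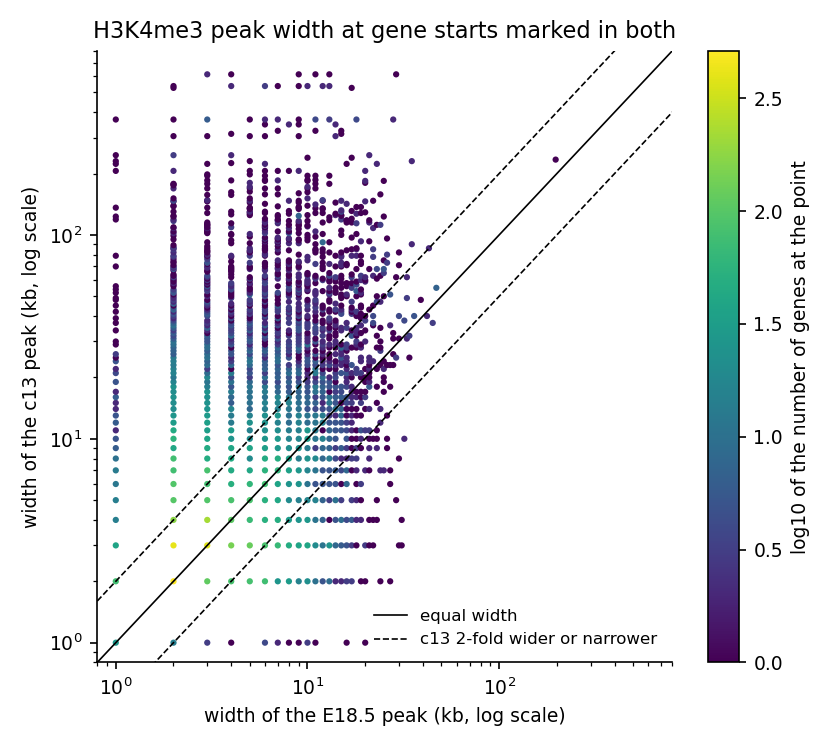
Width of the c13 peak (vertical axis, kb, log scale) against that of the E18.5 peak (horizontal axis, kb, log scale) at 10047 gene starts marked in both lists, with the colour giving the log10 number of genes at each point. The solid line is equal width and the dashed lines a 2-fold difference. More points lie above the upper dashed line (4294 genes) than below the lower one (1052 genes), and the point at the right is Prdm1.

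The largest ratios belonged to genes inside the widest c13 peaks. Gcgr, the glucagon receptor gene, lay under a c13 peak of 368 kb and an E18.5 peak of 1 kb. For Megf6 the widths were 537 kb in c13 and 2 kb at E18.5, and for Septin9, a filament-forming GTPase gene, 526 kb in c13 and 2 kb at E18.5. Such a ratio says how far the peak ran and not how much mark lay at the start. In the other direction the largest was that of Efcab12, with 1 kb in c13 and 20 kb at E18.5. It was followed by Gm40453, with 1 kb in c13 and 16 kb at E18.5, and Ift88, a cilium transport gene, with 2 kb in c13 and 27 kb at E18.5. Arpc5, a subunit of the actin-nucleating Arp2/3 complex, had 3 kb in c13 and 31 kb at E18.5. For Hspa5, which encodes the endoplasmic reticulum chaperone BiP, the widths were 8 kb in c13 and 30 kb at E18.5, and Rad52, a recombination mediator, had 6 kb in c13 and 27 kb at E18.5.

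Germ cell markers were nearly all marked at both stages. Of 8 germ cell markers, Ddx4, Dazl, Mael, Sycp1, Sycp3, Stra8, Figla and Nobox, all were marked in c13 and all but Stra8 at E18.5, and their peaks summed to 52 kb in c13 and 61 kb at E18.5. In the c13 H3K27me3 list 6 of the 8 also had a peak, against 1 at E18.5, beside 64.2% in c13 and 27.8% at E18.5 of all genes marked in both lists. The 5 embryonic stem cell markers were all marked in c13, and all but Pou5f1 at E18.5, with sums of 63 kb in c13 and 53 kb at E18.5. Both sets of markers stand beside 71.7% of all genes marked in c13 and 61.3% at E18.5. A marked promoter is not evidence of transcription, since poised genes carry the mark too.

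Among markers of other ovarian cells, summed peak widths were higher in c13 for stroma and surface, granulosa and endothelial markers. For blood markers the c13 sum was lower, and Cd3g gave most of the E18.5 sum. The background over all genes was 71.7% marked by c13 and 61.3% by E18.5. Peaks were also wider in c13 in general, with a median ratio of 1.5 over the 10047 genes marked in both lists. Stroma and surface markers were marked for 6 of 6 in c13 and 1 of 6 at E18.5, with summed widths of 102 kb in c13 and 9 kb at E18.5. Granulosa markers gave 5 of 7 in c13 and 4 of 7 at E18.5, with 202 kb in c13 and 27 kb at E18.5. The c13 peak over Amhr2 alone gave 110 kb of that c13 sum. Among endothelial markers 3 of 5 were marked in c13 and 1 of 5 at E18.5, with 67 kb in c13 and 2 kb at E18.5. Blood markers gave 3 of 5 at each stage, with 11 kb in c13 and 32 kb at E18.5, of which Cd3g gave 22 kb. Fshr, Nr5a1, Tek, Tie1 and Ptprc had no peak within 1 kb at either stage, although c13 peaks lay 1.54 kb from Nr5a1 and 1.85 kb from Tie1, against 44.5 kb and 26.2 kb for the nearest E18.5 peaks. The endothelial genes Pecam1, a junction molecule under 48 kb, and Cdh5, the cadherin of endothelial junctions under 14 kb, were marked in c13 and not at E18.5. Most of these somatic genes lay in H3K27me3 peaks as well, with 6 of 6 stroma and surface markers in each list. For granulosa markers the counts were 6 of 7 in c13 and 5 of 7 at E18.5. As background, 12204 of all 20661 genes had an H3K27me3 peak in c13 and 7432 had one at E18.5. The part of other cell types in the results was not tested.

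In the longer lists of such genes, the gap in marking was wide for stroma and close to that of all genes for granulosa. Of 16 stroma, theca and surface genes, c13 marked 13 (81.2%) and E18.5 marked 5 (31.2%), and 9 were c13 only. In the same list Cyp11a1 was marked at E18.5 only, and Cyp17a1 and Star were marked at neither stage. Nr2f2, a nuclear receptor of mesenchyme, had 25 kb in c13 with the nearest E18.5 peak 1.25 kb from its start, and Tcf21, a mesenchymal helix-loop-helix factor, had 11 kb in c13 with none within 35.1 kb. Pdgfra, a growth factor receptor gene, had 13 kb in c13, and all 3 were also marked in c34 and GV lists. Of the 9 c13-only genes, 4 were in the c34 list and 7 in the GV list, and 2 were in neither. For comparison, c34 peaks marked 66.0% of all 20661 genes, and GV peaks marked 73.3% of them. Of 15 granulosa genes, c13 marked 12 (80.0%) and E18.5 marked 10 (66.7%), beside 71.7% and 61.3% of all genes. Amhr2, the receptor of anti-Mullerian hormone, lay under 110 kb in c13 with an E18.5 peak 5.63 kb from its start, and Foxl2, a granulosa factor, was in both lists with 19 kb in c13 and 10 kb at E18.5. Of 10 endothelial genes, c13 marked 7 and E18.5 marked 4, and of 10 blood genes each list marked 5. Widths of blood genes went both ways. Cd68 had 40 kb in c13 and 22 kb at E18.5, Tyrobp 13 kb and 6 kb, and Spi1 7 kb and 9 kb.

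Genes of meiosis were marked in both lists at nearly every member. Read against 71.7% of all genes in c13 and 61.3% at E18.5, c13 marked 14 of 14 synaptonemal complex genes, 23 of 24 genes of meiotic breaks and recombination and 10 of 10 genes of meiotic entry. E18.5 marked 14 of 14, 23 of 24 and 9 of 10 of the same groups. The gene of neither list was Mei1, needed for meiotic breaks, and the c13-only gene was Stra8. Stra8 lay under a c13 peak of 5 kb (chr6:34918001-34923000), and the nearest E18.5 peak was 6.95 kb from its start. It was in the c34 list with 4 kb and in the GV list with 54 kb.

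Width divided the meiotic genes that both lists marked. Sycp3 had 6 kb in c13 (chr10:88456001-88462000) and 16 kb at E18.5 (chr10:88446001-88462000), so that the peaks ended together and the E18.5 peak ran on to the left of the gene. Sycp1, the transverse filament of the synaptonemal complex, had 2 kb in c13 and 4 kb at E18.5. Sycp2, a lateral element partner of Sycp3, had 35 kb in c13 and 10 kb at E18.5. Rec8, the meiotic cohesin kleisin, lay under 68 kb in c13 and 5 kb at E18.5, and Bhmg1, also known as Meiosin, which acts with Stra8, under 57 kb in c13 and 4 kb at E18.5. Dazl, an RNA-binding protein of germ cells, had 5 kb in c13 and 3 kb at E18.5. The median width ratio was 3.23 over 8 genes of meiotic entry, 1.67 over 18 of recombination and 1.00 over 12 of the synaptonemal complex, against 1.5 over all 10047 genes.

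Oocyte transcription factors were marked at both stages, and zona and secreted genes in part. Of 10 transcription factors, 9 were marked in each list, beside 71.7% of all genes in c13 and 61.3% at E18.5, and Tbpl2, an oocyte form of the TATA-binding protein, in neither. Figla, which activates zona genes, had 6 kb in c13 and 18 kb at E18.5. Nobox, a homeobox factor of early folliculogenesis, had 4 kb in c13 and 11 kb at E18.5. Sohlh1, a helix-loop-helix factor upstream of both, had 16 kb in c13 and 7 kb at E18.5, and its partner Sohlh2 had 4 kb in c13 and 5 kb at E18.5. Of 9 zona and secreted genes, c13 marked 6 (66.7%) and E18.5 marked 4 (44.4%). Zp3, a zona pellucida protein, lay in a c13 peak of 84 kb that ended 7 kb past its start, and the nearest E18.5 peak was 8.90 kb away. Zp1 was likewise c13 only, with 8 kb at an annotated end, and the clustered Oosp1, Oosp2 and Oosp3 were marked in neither list.

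Many maternal effect genes lacked the mark at both stages. Of 16 genes of the subcortical maternal complex and other maternal factors, c13 marked 8 and E18.5 marked 6. Nlrp5, Padi6, Nlrp2, Nlrp4f, Nlrp14, Npm2, H1f8 and Btg4 had no peak within 1 kb in either. Of all genes, 71.7% were marked in c13, 61.3% at E18.5 and 27.8% in neither list. Npm2 was judged by annotated ends, and the nearest peak of each list lay 1.80 kb away. Nlrp5 lay far from any peak, with the nearest 676 kb from its start in c13 and 677 kb at E18.5, and it was marked in c34 (15 kb) and GV oocytes (11 kb). Padi6, a peptidylarginine deiminase needed for the complex, was likewise marked later, with 21 kb in c34 cells and 8 kb at the GV stage. Ooep and Tle6, further members of the complex, were marked in both lists, Ooep with 12 kb in c13 and 15 kb at E18.5, Tle6 with 22 kb in c13 and 11 kb at E18.5. Bcl2l10, an oocyte regulator of cell death, was c13 only with 2 kb.

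Enzymes of DNA and histone methylation were marked throughout with 1 exception. Both lists marked all 16 H3K4 methylation enzymes and all 27 Polycomb subunits, beside 71.7% of all genes in c13 and 61.3% at E18.5. Of 11 DNA methylation genes, c13 marked 11 and E18.5 marked 10. The exception was Dnmt3l, under a c13 peak of 2 kb (chr10:78042001-78044000) with the nearest E18.5 peak 31.3 kb away. It remained in the list of c34 with 6 kb and of GV oocytes with 5 kb. Dnmt3a, the de novo methyltransferase that acts with Dnmt3l, was in both lists, with its widest peaks at different places: 15 kb in c13 (chr12:3885001-3900000) and 8 kb at E18.5 (chr12:3802001-3810000). Kdm1b, the H3K4 demethylase needed for imprints in oocytes, ran the other way with 10 kb in c13 (chr13:47042001-47052000) and 32 kb at E18.5 (chr13:47042001-47074000). Polycomb subunits were at least 2-fold wider in c13 at 13 of 21 genes with a known start, against 42.7% of all. Eed had 3 kb at each stage and Ezh2 4 kb in c13 and 3 kb at E18.5. The 16 maternally imprinted and the 16 H3K27me3-dependent imprinted genes were all marked in both lists, Peg3 with 8 kb in c13 and 4 kb at E18.5 and Sfmbt2 with 6 kb in c13 and 16 kb at E18.5.

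Early germ cell and pluripotency genes were mostly marked at both stages, some with close and some with very different widths. Of 22 genes c13 marked 21 and E18.5 marked 18, beside 71.7% of all genes in c13 and 61.3% at E18.5. The median width ratio over 12 genes was 1.18. Of the 12, 4 were at least 2-fold wider in c13 and 1 was at most 0.5 times as wide. Nanog, a core pluripotency factor, had 14 kb in c13 and 12 kb at E18.5. Its partner Sox2 had 19 kb in c13 and 20 kb at E18.5, and the nuclear receptor gene Esrrb 13 kb in c13 and 12 kb at E18.5. For Klf2 the widths were 5 kb in c13 and 6 kb at E18.5. Fgf4, a growth factor gene, lay under 131 kb in c13 and 17 kb at E18.5, and Lin28a, an RNA-binding protein gene, under 28 kb in c13 and 9 kb at E18.5. Utf1 had 25 kb in c13 and 5 kb at E18.5. By annotated ends, the zinc finger factor gene Sall4 had 198 kb in c13 and 10 kb at E18.5, and Tfap2c, a factor of primordial germ cells, 59 kb in c13 and 7 kb at E18.5. Pou5f1 was c13 only, under a peak of 14 kb (chr17:35496001-35510000) with the nearest E18.5 peak 7.19 kb from its start. It was also marked in c34 cells (6 kb) and GV oocytes (45 kb). Tbx3 (36 kb in c13, at an annotated end) and Tdgf1, the Nodal co-receptor gene (10 kb), were the other c13-only members. In the piRNA and germ granule group, c13 marked 19 of 20 and E18.5 marked 17 of 20. Nanos2 and Nanos3, translational regulators of germ cells, were c13 only with 6 kb and 51 kb, and the nearest E18.5 peaks lay 2.48 kb and 2.45 kb from their starts. Ddx4, the germ cell RNA helicase, had 21 kb in c13 and 3 kb at E18.5.

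Developmental regulators were marked in full in c13. All 24 mesoderm and endoderm regulators and all 24 neural regulators were marked in c13, against 17 (70.8%) and 21 (87.5%) at E18.5. Of all genes, c13 marked 71.7% and E18.5 marked 61.3%, so both stages lay above these shares. The c13-only regulators were T, Gata4, Tbx5, Hand2, Hoxb1, Meox1 and Lefty1 and, of the neural group, Pax7, Otx2 and Nkx2-2. T, the mesoderm factor Brachyury, lay under 30 kb in c13 with the nearest E18.5 peak 13.4 kb from its start. Hand2, a factor of heart and limb, had 18 kb in c13, and no E18.5 peak lay within 165 kb. Otx2, a forebrain factor, had 15 kb in c13. Of these 48 entries, 24 of 24 and 23 of 24 also lay in c13 H3K27me3 peaks. In E18.5 H3K27me3 peaks the counts were 19 of 24 and 23 of 24. As background, 12204 of all 20661 genes had an H3K27me3 peak in c13 and 7432 had one at E18.5. Of 39 Hox genes, c13 marked 39 and E18.5 marked 36, and every one lay in an H3K27me3 peak at both stages. The second widest E18.5 peak covered 47 kb of the HoxA cluster (chr6:52200001-52247000) inside a c13 peak of 55 kb.

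Cytokeratin and clustered protocadherin genes were marked in c13 at many genes that E18.5 left unmarked. Of 53 cytokeratin genes, c13 marked 35 (66.0%) and E18.5 marked 13 (24.5%), beside 71.7% of all genes in c13 and 61.3% at E18.5. Krt5, a keratin of basal epithelium, lay under 96 kb in c13, and Krt8, of simple epithelium, under 74 kb, with the nearest E18.5 peaks 9.10 kb and 14.3 kb away. Neighbouring keratin genes share peaks, so these counts are not independent. Of 57 clustered protocadherin genes, which encode neuronal adhesion proteins and lie on chromosome 18, c13 marked 41 and E18.5 marked 7. All were judged by either annotated end, and since the gamma genes share 1 right end, the count was repeated on the left ends: 39 in c13 and 7 at E18.5. The c13 peaks lay at the left end of 13 of 14 alpha, 6 of 22 beta and 20 of 21 gamma genes, against 3, 0 and 4 at E18.5. Olfactory receptor genes were rarely marked, 26 of 1104 in c13 and 16 at E18.5, and keratin-associated protein genes were marked at 7 of 56 in c13 and 0 at E18.5.

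Ribosomal protein and housekeeping genes showed the width difference with little or no difference in marking. Ribosomal protein genes were marked at 77 of 78 in each list, and over 57 genes the median width ratio was 2.50. Of 20 genes listed as housekeeping, c13 marked 18 and E18.5 marked 17, with a median ratio of 2.92 over 12 genes. Gusb was c13 only, and Ywhaz and Pgk2 were marked in neither list. Gapdh, a glycolytic enzyme gene, lay under 43 kb in c13 and 12 kb at E18.5. Among transcription factor and ligand families, c13 marked 38 of 41 forkhead, 17 of 18 Sox, 11 of 12 Tbx and 18 of 19 Wnt genes, against 33, 15, 7 and 14 at E18.5. The shares over all genes were 71.7% in c13 and 61.3% at E18.5. Of 360 zinc finger genes named Zfp, c13 marked 333 and E18.5 marked 305, with a median ratio of 1.33.

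**Figure D4:**
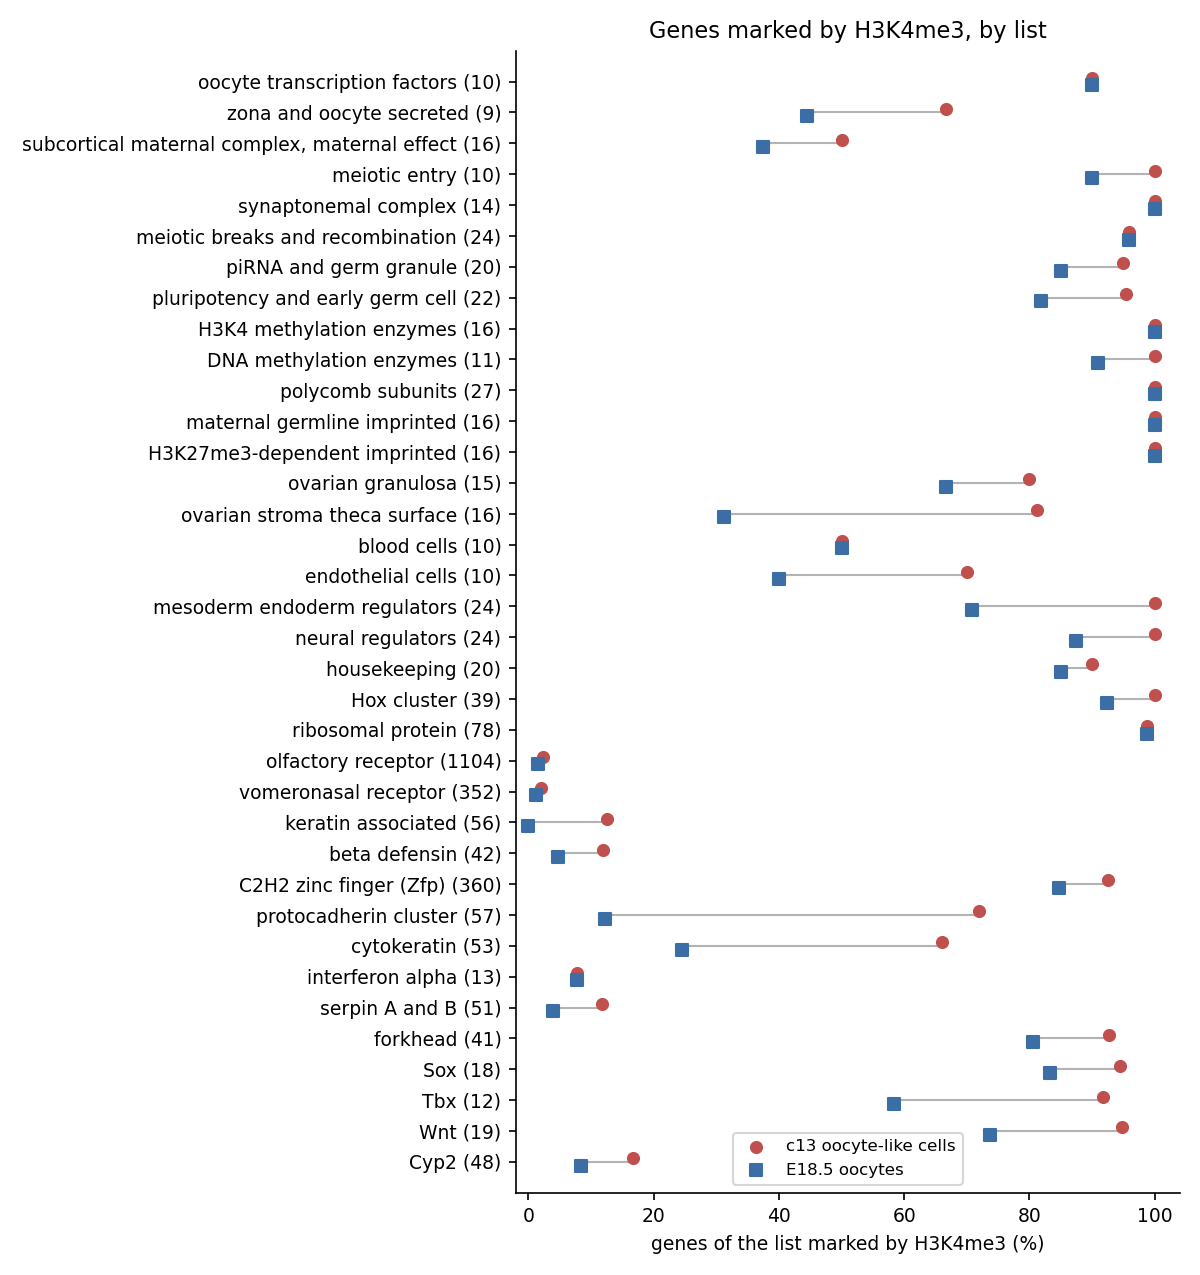
Share of the genes of each list marked by H3K4me3 (horizontal axis, percent), with c13 oocyte-like cells as circles and E18.5 oocytes as squares, and the number of genes in brackets. Circles lie well to the right of squares for ovarian stroma, theca and surface genes, clustered protocadherins and cytokeratins, and close to them for synaptonemal complex, H3K4 methylation, Polycomb, imprinted and ribosomal protein genes.

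The genes marked at E18.5 and not in c13 were few and lay under middling peaks with a median of 7 kb. The widest was at Fut2, a fucosyltransferase gene, with an E18.5 peak of 34 kb (chr7:45621001-45655000) and the nearest c13 peak 1.41 kb away. Cd3d and Cd3g shared an E18.5 peak of 22 kb (chr9:44960001-44982000), and the nearest c13 peak to Cd3g was 4.57 kb from its start. Their neighbour Cd3e had a peak of 1 kb in both lists. Ttn, the giant muscle protein gene, also had 22 kb at E18.5, with no c13 peak within 12.5 kb. Cyp11a1, the steroidogenic side-chain cleavage enzyme, had 8 kb at E18.5, was 56.0 kb from the nearest c13 peak, and was in the GV list with 67 kb.

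The widest E18.5 peak lay over Prdm1, the gene named in a reporter of both stages. Prdm1 encodes BLIMP1, a specifier of primordial germ cells. The E18.5 peak ran for 197 kb (chr10:44401001-44598000), beyond both ends of the gene of 91.4 kb, and was the sole E18.5 peak above 50 kb. At c13 the peak ran for 234 kb (chr10:44367001-44601000) and contained it. In c34 cells, from the same reporter line, the locus held peaks of 96, 25 and 42 kb. In GV oocytes of BDF1 mice it held shorter peaks with gaps over the gene, the widest touching the gene being of 41 kb. The c13 cells had an H3K27me3 peak of 430 kb there and E18.5 oocytes had none. How the reporters were built is not given in the sources used here, and the part of the reporter in this peak was not tested. Dppa3, the other reporter gene and a maternal factor, had a c13 peak of 27 kb at an annotated end, and the nearest E18.5 peak was 65.7 kb away.

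**Figure D5:**
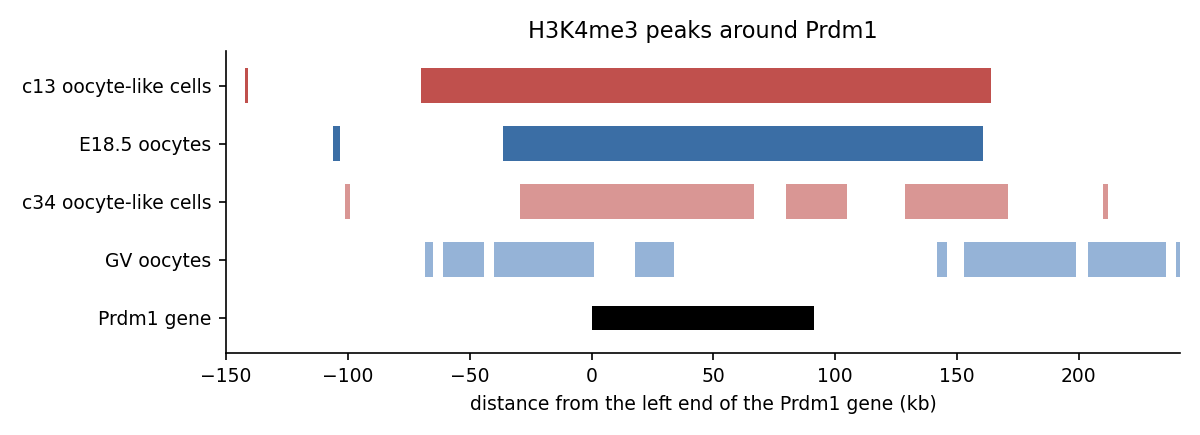
H3K4me3 peaks (bars) around Prdm1, placed by distance in kb from the left end of the gene (horizontal axis), for c13 oocyte-like cells, E18.5 oocytes, c34 oocyte-like cells and GV oocytes, with the gene body in black. The c13 bar of 234 kb contains the E18.5 bar of 197 kb, c34 has bars of 96, 25 and 42 kb, and GV oocytes have shorter bars with gaps.

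The widest list-only peaks were shorter than the widest shared ones. Of 550 c13 peaks above 50 kb, 30 were c13 only, and of 210 E18.5 peaks above 20 to 50 kb, 4 were E18.5 only. The widest c13-only peak spanned 125 kb (chr4:153217001-153342000) and touched no protein-coding gene, and another of 99 kb (chr1:88211001-88310000) touched the Ugt1a cluster of glucuronosyltransferases and covered 5 gene starts. The widest E18.5-only peak spanned 40 kb (chr9:2999001-3039000) where the assembled sequence of chromosome 9 begins, and c34 had a peak over all 40 kb of it. E18.5 H3K27me3 and H3K36me3 peaks each covered 39 kb of that stretch. The second E18.5-only peak covered 29 kb (chr5:141420001-141449000) at Sdk1, a synaptic adhesion gene, with 5 kb of it in c34.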

How the data were processed

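H3K4me3, H3K27me3 and H3K36me3 were mapped by CATCH-seq. The authors deposited 13 peak lists, and per the file headers each row holds a chromosome, a start and an end, so that the values are positions in an other unit than counts, with no score. Starts count from 0. Edges of H3K4me3 peaks lie on a 1 kb grid, those of both other marks on a 10 kb grid. Per the submitters' processing notes the genome builds were mm10 and GRCm38.p3, the peak callers MACS2 2.1.1 and SICER 0.0.41, and the aligner Bowtie2 2.3.4.1. Those notes also list the trimmers cutadapt 1.9.1 and Trim Galore 0.4.1, and Picard 2.18.23, SAMtools 1.7, deepTools 3.5.0 and bedtools 2.29.2. The caller, threshold, input use and library pooling behind each list were not given in the sources used here.

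Peaks of 19 autosomes were compared by an overlap of at least 1 bp, and coordinates are 1-based. Gene positions and promoter sequences are RefSeq's for GRCm38.p6. Of 20661 protein-coding genes, 16456 had a given start and 4205 were judged by either annotated end, including all of chromosome 18. With 1 list per stage no test was possible, so called means marked or past a 2-fold width ratio. Named genes were list members marked in 1 list (up to 8 per list), up to 4 per list marked in both or neither in list order, the extremes of width, and the widest peaks. Kdm1b, Hspa5, Rad52, Krt5, Krt8, Nlrp14, Npm2, H1f8 and Btg4 fall outside that rule and were chosen after their values were seen. The same holds for Fgf4, Lin28a, Utf1, Sall4 and Tfap2c. Members and lists were chosen with earlier results of these data known. Overlap arithmetic was tested on simulated data and was exact for 20 of 20 pairs of lists. Work used Python 3.11.15, numpy 2.4.6, pandas 2.3.3 and matplotlib 3.10.9. Alternatives changed overlap, merging, width, peak number, chromosomes, windows and genes.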

Additional observations from a re-analysis of the deposited data

How the results depend on the processing

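No paired analysis was possible because each stage had 1 deposited list whose columns carry no replicate, and for the same reason no replicate could be left out. Of 61 recomputed values 43 stayed within 1.5 times the reported count (for a share, within its binomial interval), and 18 moved further. Whether a result changed direction was not scored. With at least 50% of a peak covered, 15888 c13 peaks and 5344 E18.5 peaks were in 1 list only. With peaks of at least 3 kb, 12202 c13 and 13451 E18.5 peaks were shared and 3659 E18.5 peaks were E18.5 only, with 3809 c13-only and 709 E18.5-only genes. Keeping as many of the widest c13 peaks as E18.5 had left 4586 E18.5-only peaks and 564 E18.5-only genes. Among the 13543 genes over 10 kb from any other, fewer genes were tested, and 7486 were marked in both lists, 1484 by c13 alone and 63 by E18.5 alone. Covered length within 5 kb of the start, which the window caps, put 2448 genes past 2-fold in c13. Beyond 5 kb of the starts of all annotated genes lay 63.5% of c13-only and 80.1% of E18.5-only peaks, and beyond 1 kb of protein-coding starts 83.1% and 96.9%. Without c13 peaks above 50 kb, an alternative chosen after seeing the data, as were merging over 10 kb, genes with a known start only and genes whose widest peaks share bases, 1238 genes were E18.5 only, by construction. Merging over 3 kb changed nothing, since the smallest gap between peaks is 4 kb, and its unchanged values are among the 43. Read depth is unknown, so an absent peak cannot be told from one under the threshold. Except where construction shows it, the cause of these moves was not tested.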
